A study of Mus musculus with 12 samples.

Results

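The 10 genes described here are markers of cardiac macrophages, the phagocytes that live in the heart wall: Adgre1, Csf1r, Cd68, Cd163, Mrc1, Lyve1, C1qa, C1qb, C1qc and Fcgr3. Their rows were taken by gene symbol. Of the 29564 genes in the deposited count table, 9 rows carried these symbols and Adgre1 was found under its older symbol Emr1. All 10 were among the 14333 genes that passed a filter on low counts and were tested.

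Polyadenylated RNA of the left ventricle (LV) was sequenced in 12 wild-type C57BL6 mice (C57BL/6J in the methods of the study), 1 library per mouse and 4 mice per group. Control-Veh mice did not have the disease model and received vehicle. HFpEF-Veh mice received a high-fat diet and L-NAME, an inhibitor of nitric oxide synthase, which together model heart failure with preserved ejection fraction (HFpEF), and then vehicle. Diet and L-NAME were likewise given to HFpEF-TYA-018 mice, which received 15 mg/kg of oral TYA-018, which inhibits HDAC6, a deacetylase. The series title gives a single dose, whereas the protocol in the labels gives daily doses for weeks. The study's text describes hearts collected hours after 1 dose. The labels gave neither age nor sex nor a batch. In the methods of the study the C57BL/6J mice are male, and an age is given at purchase. The mice of a group had neighbouring animal numbers, so effects of housing or of the order of processing and those of the group cannot be told apart. Libraries are called C1 to C4 (Control-Veh, the control hearts), V1 to V4 (HFpEF-Veh, the vehicle hearts) and T1 to T4 (HFpEF-TYA-018, the treated hearts).

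Macrophages of the adult heart take up dying cells and debris, and many of them depend on signals through the CSF1 receptor for their survival. A resident population that lies along vessels carries the hyaluronan receptor LYVE1, the mannose receptor MRC1 and the haemoglobin scavenger receptor CD163. Macrophages are also a main source of C1q, which starts the classical complement pathway. Monocytes from the blood can enter the heart and become macrophages, and some of the markers are shared with them.

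Library totals were 61.2 to 83.9 M estimated counts. Counts were scaled per library with the TMM method of edgeR and are given as CPM, the counts of a gene per M counts of its library, mean ± SD, n = 4. Mitochondrial transcripts took 37.0% to 40.6% of the counts of control hearts, 43.1% to 47.7% of vehicle hearts and 35.4% to 41.2% of treated hearts. Globin transcripts took 0.154% to 0.240%, 0.420% to 1.32% and 0.255% to 0.341%. Both shares thus moved with the groups in the same direction as the markers. A fit without mitochondrial genes is given at the end, and the part of either share in the results below was not otherwise tested. Genes of ventricular muscle were abundant, with 8 cardiomyocyte genes summing to 25485 to 38574 CPM per library, and 3 atrial genes summed to only 1.83 to 2.87 CPM. In whole ventricle, more macrophages and more RNA per macrophage cannot be told apart.

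The markers fall into groups by role. Adgre1 (chr17:57358691-57483527, + strand) encodes F4/80, the classical mouse macrophage surface marker. Csf1r (chr18:61100598-61132149, +) encodes the receptor for the growth factors CSF1 and IL34. Cd68 (chr11:69664213-69666153, -) encodes a glycoprotein of late endosomes and lysosomes. Fcgr3 (chr1:171051174-171064935, -) encodes a receptor for immunoglobulin G. All coordinates are GRCm38 with the GENCODE M21 annotation, in which all 10 are protein-coding genes.

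C1qa (chr4:136895917-136898803, -), C1qc (chr4:136889804-136893065, -) and C1qb (chr4:136880129-136886187, -) lie side by side and encode the 3 chains of C1q. Cd163 (chr6:124304656-124330527, +), Mrc1 (chr2:14229392-14332057, +) and Lyve1 (chr7:110850607-110863239, -) encode the scavenger, mannose and hyaluronan receptors of the resident population. LYVE1 is also made by lymphatic endothelium.

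Promoters were available from RefSeq (GRCm38.p6) for 6 of the 10 genes. Those of 4 are shown as examples of C1q, the resident receptors and the lysosomal marker, each as the 250 bases before the RefSeq start, in the direction of the gene. Capitals mark GAGGAA on either strand (TTCCTC where it lies on the other), a form of the sequence bound by PU.1, the factor that specifies macrophages. The last bases of the Mrc1 window lie within the gene as GENCODE draws it.
C1qb, chr4:136886201-136886450, minus strand: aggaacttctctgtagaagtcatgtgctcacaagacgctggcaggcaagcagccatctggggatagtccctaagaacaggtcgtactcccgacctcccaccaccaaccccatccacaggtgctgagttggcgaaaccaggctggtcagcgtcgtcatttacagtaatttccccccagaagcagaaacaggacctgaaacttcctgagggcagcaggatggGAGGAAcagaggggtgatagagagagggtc
Mrc1, chr2:14229164-14229413, plus strand: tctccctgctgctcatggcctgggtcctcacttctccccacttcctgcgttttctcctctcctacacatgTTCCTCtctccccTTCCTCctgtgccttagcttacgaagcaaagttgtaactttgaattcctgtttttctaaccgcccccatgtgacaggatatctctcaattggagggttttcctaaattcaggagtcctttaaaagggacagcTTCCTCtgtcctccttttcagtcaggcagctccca
Cd163, chr6:124304401-124304650, plus strand: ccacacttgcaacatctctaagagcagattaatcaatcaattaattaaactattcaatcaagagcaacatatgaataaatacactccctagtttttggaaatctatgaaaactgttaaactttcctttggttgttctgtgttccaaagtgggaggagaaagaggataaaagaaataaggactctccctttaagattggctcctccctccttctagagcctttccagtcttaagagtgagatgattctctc
Cd68, chr11:69666171-69666420, minus strand: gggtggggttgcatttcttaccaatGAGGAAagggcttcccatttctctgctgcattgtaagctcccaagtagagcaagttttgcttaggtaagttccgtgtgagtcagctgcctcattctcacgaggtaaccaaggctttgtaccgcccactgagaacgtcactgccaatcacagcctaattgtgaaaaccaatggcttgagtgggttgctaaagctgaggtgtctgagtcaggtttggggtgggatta

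The letters occurred 3 times in the Mrc1 window, 1 time each in those of C1qb and Cd68, and 0 times in that of Cd163. Of 32536 promoter windows of the same length, 23.4% held them. A match is a description of these letters, not evidence of binding, and nothing was read from the absence in Cd163.

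In Control-Veh hearts, the C1q chains were the most abundant of the markers per unit of length and Adgre1 and Cd163 the least. In TPM, the share of transcripts after division by gene length, C1qa was at 12.7 ± 1.11, C1qb at 7.46 ± 0.778 and C1qc at 5.52 ± 0.394. Fcgr3 (3.45 ± 0.782) and Cd68 (3.16 ± 0.728) followed, with ranges that overlapped. Csf1r came next at 1.81 ± 0.426 TPM. Lyve1 (1.06 ± 0.289) and Mrc1 (1.04 ± 0.0856) could not be ordered by their ranges. Cd163 (0.163 ± 0.0582) and Adgre1 (0.137 ± 0.0255) stood at the bottom and overlapped as well. Cd68 and Csf1r overlapped too, while the other neighbours in this order did not. The order was the same in the other groups up to exchanges between neighbours whose ranges overlapped, and C1qb and C1qc overlapped in both HFpEF groups.

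The chains of C1q are assembled in equal number, and their transcripts kept nearly constant proportions. The TPM of C1qb was 0.589 ± 0.0438 of that of C1qa in the control hearts, 0.624 ± 0.00708 in the vehicle hearts and 0.586 ± 0.0520 in the treated hearts. The corresponding ratio for C1qc was 0.436 ± 0.0123, 0.464 ± 0.0448 and 0.462 ± 0.0381. All 3 groups overlapped in both ratios.

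The first comparison asked how the markers differ between hearts with the HFpEF model and control hearts. All 10 had higher values in the vehicle hearts than in the controls, and 9 of them rose at an adjusted p under 0.05 (edgeR quasi-likelihood test, Benjamini-Hochberg over the 14333 genes). Of all tested genes, 10.9% were called higher and 21.2% were called in either direction. The median log2 fold change was 0.68 over the 10 markers and -0.011 over all tested genes. In this fit, which does not use gene length, the values ran from 0.39 ± 0.12 (SE) for Csf1r to 0.93 ± 0.12 for Mrc1, and this order changed when length was used. With effective lengths as an offset Mrc1 was at 0.55 and the C1q chains at 0.82 to 0.91.

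C1q rose by about the same factor in its 3 chains. C1qb was at 21.4, 19.2, 21.3 and 19.6 CPM in C1 to C4 and at 30.1, 41.6, 36.2 and 33.5 CPM in V1 to V4. The control hearts lay close together and every HFpEF-Veh heart was above them. The log2 fold change was 0.79 ± 0.09 for C1qb (adjusted p 0.000453), 0.73 ± 0.11 for C1qc (0.00109) and 0.70 ± 0.10 for C1qa (0.000922) by edgeR. C1qa went from 28.1 ± 1.28 to 45.7 ± 6.02 CPM and C1qc from 21.5 ± 0.958 to 35.6 ± 5.29 CPM, both without overlap. V2 had the highest level of each chain and V1 the lowest. V1 was also the library with the highest globin share, 1.32%.

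Mrc1 was at 12.5, 9.66, 10.2 and 9.62 CPM in C1 to C4 and at 20.5, 23.1, 18.3 and 17.9 CPM in V1 to V4. The highest control heart was thus well below the lowest HFpEF-Veh heart (adjusted p of 0.000634 by edgeR). Lyve1 was at 18.2, 13.3, 12.2 and 13.6 CPM in the controls and at 17.5, 22.5, 24.4 and 21.7 CPM in HFpEF-Veh. Here the groups overlapped, since C1 exceeded V1, and the log2 fold change was 0.59 ± 0.15 (adjusted p of 0.0183 by edgeR). Cd163 was at 5.76, 3.33, 4.23 and 2.50 CPM in the controls and at 6.12, 5.36, 7.29 and 6.20 CPM in HFpEF-Veh. It was the 1 marker that did not pass, with a log2 fold change of 0.66 ± 0.22 (adjusted p of 0.0532 by edgeR), and C1 lay above V2. The controls of Cd163 spread more than those of any other marker relative to their mean, 3.95 ± 1.40 CPM.

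Among the general markers, Adgre1 rose most in this fit. It was at 1.56 to 2.31 CPM in the controls and at 3.10 to 3.46 CPM in HFpEF-Veh, a log2 fold change of 0.85 ± 0.15 (adjusted p of 0.00278 by edgeR). With effective lengths as an offset Adgre1 was at 0.59 (adjusted p of 0.0498 by edgeR). On TPM rescaled over nuclear coding genes it was at 0.30 and was not called (limma adjusted p 0.0626). Fcgr3 was at 7.15 ± 0.917 CPM in the controls and 10.9 ± 1.62 CPM in HFpEF-Veh (log2 fold change 0.60 ± 0.12, adjusted p of 0.00431 by edgeR). Cd68 was at 4.73 ± 0.589 and 6.94 ± 0.957 CPM (0.55 ± 0.13, adjusted p of 0.00988 by edgeR). None of these 3 genes overlapped between the groups. Csf1r was at 22.7, 16.5, 16.1 and 14.8 CPM in C1 to C4 and at 21.9, 25.1, 23.3 and 21.9 CPM in V1 to V4, with C1 inside the HFpEF-Veh range (adjusted p of 0.0357 by edgeR). In all, the groups did not overlap in 7 of the 10 markers, against 23.5% of tested genes in either direction.

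**Figure D1:**
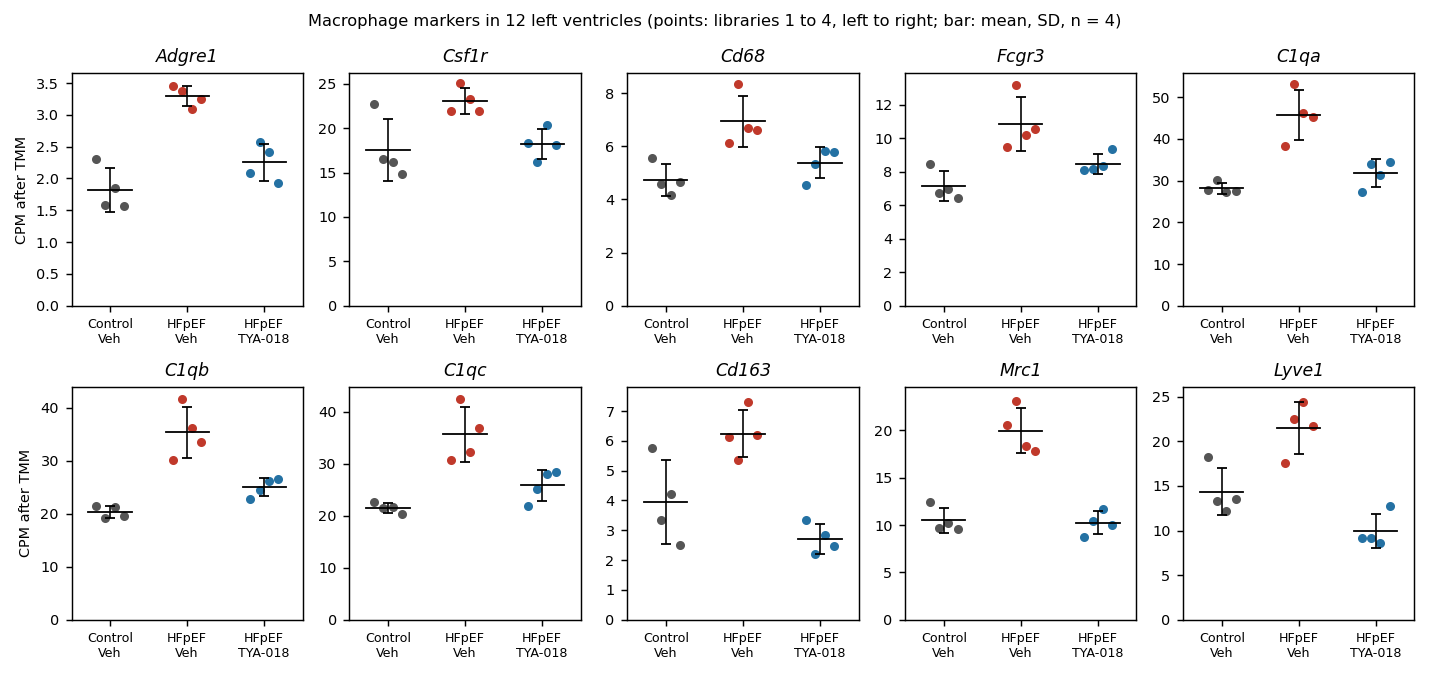
Level of each marker in CPM after TMM (vertical axes, each from 0) in the 12 left ventricles by group; points are libraries in their numbered order from left to right, and bars give the mean and SD (n = 4). The HFpEF-Veh hearts lie above all HFpEF-TYA-018 hearts for each of the 10 genes, and above all control hearts for 7 of them.

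One control heart weighed on this comparison. C1 had the highest level of its group for 9 of the 10 markers, C2 being highest for C1qa, and C4 had the lowest for 6. Without C1, all 10 markers passed, Cd163 with a log2 fold change of 0.90 (adjusted p of 0.00711 by edgeR) and Csf1r with 0.54. Csf1r fell short of the threshold when any 1 of the other 7 libraries was left out, with log2 fold changes of 0.32 to 0.42 and adjusted p of 0.0528 to 0.101. Lyve1 fell just short without C2, C3, C4 or V3 (0.52 to 0.56, adjusted p 0.0522 to 0.0563).

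The second comparison asked whether the markers differed between HFpEF hearts with and without TYA-018. All 10 were lower in HFpEF-TYA-018 than in HFpEF-Veh, in every case without overlap in CPM, and 8 fell at an adjusted p under 0.05. Over all tested genes, 10.4% were called lower, 19.3% were called in either direction, and 25.1% did not overlap in either direction. The median log2 fold change was -0.51 over the markers and 0.0020 over all tested genes. HFpEF-Veh libraries enter both this comparison and the first one, so the 2 are not independent. In this fit the values ran from -1.20 for Cd163 to -0.34 for Csf1r, and differences between markers were not tested.

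Cd163 was at 3.36, 2.22, 2.83 and 2.46 CPM in T1 to T4, against 5.36 to 7.29 CPM in HFpEF-Veh. Its log2 fold change was -1.20 ± 0.23 (adjusted p of 0.00492 by edgeR), the largest of the 10. Lyve1 was at 9.11, 9.18, 8.62 and 12.7 CPM, against 17.5 to 24.4 CPM in HFpEF-Veh, a log2 fold change of -1.12 ± 0.15 (adjusted p of 0.00137 by edgeR). Even T4, the highest treated heart, was below the lowest HFpEF-Veh heart. Mrc1 was at 8.78, 10.5, 11.7 and 10.0 CPM, against 17.9 to 23.1 CPM, a log2 fold change of -0.96 ± 0.12 (adjusted p of 0.000725 by edgeR). Relative to their level in the vehicle hearts, the fitted levels were 0.436 for Cd163, 0.460 for Lyve1 and 0.513 for Mrc1. These sizes depended on the scale. With effective lengths as an offset, Cd163 was at -1.18, Lyve1 at -0.92 and Mrc1 at -0.69, with C1qb at -0.68. On TPM rescaled over nuclear coding genes, Cd163 was at -0.58, Lyve1 at -0.79 and Mrc1 at -0.61, with C1qb at -0.68.

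The 3 C1q chains fell as well. C1qb was at 22.7, 24.5, 26.2 and 26.6 CPM in T1 to T4, all below the lowest HFpEF-Veh heart at 30.1 CPM. The log2 fold change was -0.50 ± 0.09 for C1qb and -0.53 ± 0.10 for C1qa (adjusted p of 0.00431 by edgeR for each), and -0.46 ± 0.11 for C1qc (0.0111). C1qa was at 31.8 ± 3.31 CPM and C1qc at 25.8 ± 3.00 CPM after TYA-018. T1 had the lowest level of each chain among the treated hearts.

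Adgre1 was at 1.94 to 2.57 CPM after TYA-018, with a log2 fold change of -0.55 ± 0.15 (adjusted p of 0.0249 by edgeR). Fcgr3 was at 8.08 to 9.36 CPM (-0.36 ± 0.11, adjusted p of 0.0472 by edgeR). Cd68 was at 4.56 to 5.81 CPM (-0.37 ± 0.12) and did not pass, with an edgeR adjusted p of 0.0569. Csf1r was at 18.3, 16.2, 20.3 and 18.1 CPM, against 21.9 to 25.1 CPM in HFpEF-Veh (-0.34 ± 0.12), and did not pass either (adjusted p of 0.0660 by edgeR). With effective lengths as an offset, Adgre1 was at -0.21 (adjusted p of 0.485 by edgeR) and was not called, and on TPM rescaled over nuclear coding genes it was at -0.11 (limma adjusted p 0.487). Adgre1 fell short of the threshold without V1, V2, V4, T1 or T4 (-0.56 to -0.48, adjusted p 0.0517 to 0.0747). Fcgr3 fell short when any library of the 2 groups but V1 or T4 was left out (-0.39 to -0.25, adjusted p 0.0669 to 0.129). The calls of C1qa, C1qb, C1qc, Cd163, Mrc1 and Lyve1 held whichever library of these groups was left out.

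**Figure D2:**
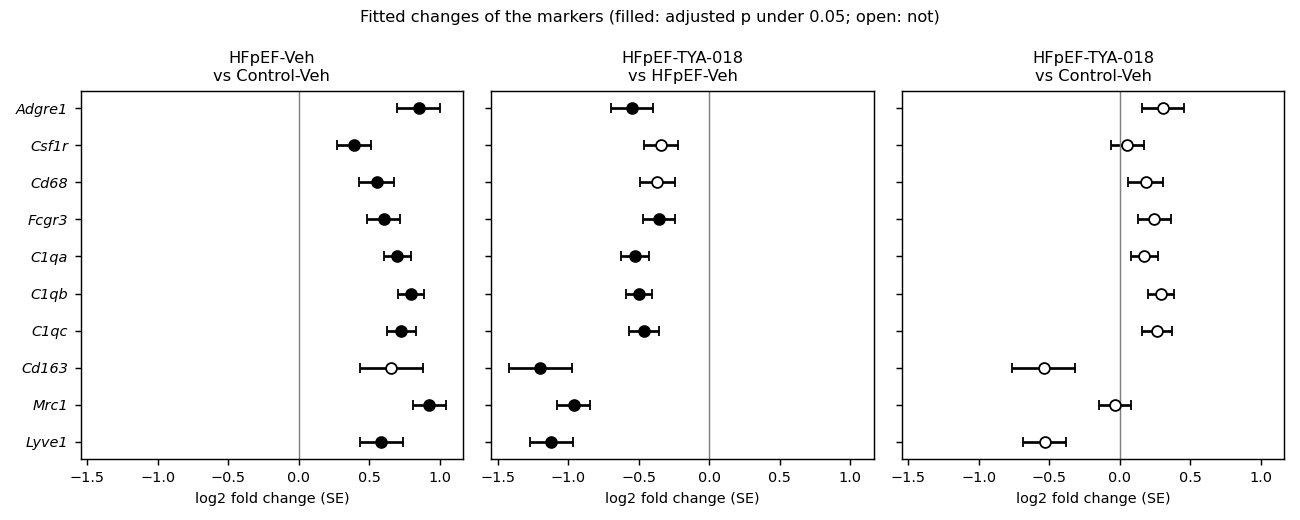
Fitted log2 fold change of each marker (horizontal axis, bars: SE) in the 3 comparisons; filled points have an edgeR adjusted p under 0.05. All 10 points lie above 0 for HFpEF-Veh against Control-Veh and below 0 for HFpEF-TYA-018 against HFpEF-Veh, and none is filled for HFpEF-TYA-018 against Control-Veh.

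The third comparison set the treated HFpEF hearts against the control hearts. None of the 10 markers was called by edgeR, against 5.86% of tested genes, and DESeq2 called 2, C1qb and Lyve1, against 10.6% of tested genes. By edgeR, 4 had an unadjusted p under 0.05 (C1qb, C1qc, Cd163 and Lyve1). The share of all tested genes under that unadjusted threshold was not counted. The median log2 fold change was 0.18 over the markers and -0.018 over all tested genes. In sign, 7 markers were higher and 3 were lower than in the controls, with 47.0% of tested genes higher. These were not tests that the groups are alike, and the values differed by marker.

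The 3 C1q chains had positive log2 fold changes, and 0 of them were called by edgeR. C1qb was at 22.7 to 26.6 CPM in the treated hearts and 19.2 to 21.4 CPM in the controls, the 1 marker without overlap, against 14.8% of tested genes in either direction. Its log2 fold change was 0.29 ± 0.09 (adjusted p of 0.0811 by edgeR, DESeq2 adjusted p 0.0388). C1qc was at 0.27 ± 0.11 (adjusted p of 0.160 by edgeR) and C1qa at 0.17 ± 0.10 (0.318). Adgre1 (0.30 ± 0.15), Fcgr3 (0.24 ± 0.12), Cd68 (0.18 ± 0.13) and Csf1r (0.054 ± 0.12) had positive values that did not pass.

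The 3 resident receptors had negative log2 fold changes, and 0 of them were called by edgeR. Lyve1 had a log2 fold change of -0.53 ± 0.15 (adjusted p of 0.0618 by edgeR, DESeq2 adjusted p 0.0114), with T4 as the 1 treated heart inside the control range of 12.2 to 18.2 CPM. Without T4 the value was -0.67 and passed by edgeR (adjusted p 0.0292). Cd163 had -0.54 ± 0.22 (adjusted p of 0.177 by edgeR) and overlapped the controls. Mrc1 was at 10.3 ± 1.22 CPM against 10.5 ± 1.34 CPM (-0.034 ± 0.12, adjusted p 0.899 by edgeR), and this near-zero value changed sign with the library left out, from -0.11 to 0.060.

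The markers can also be read against each other within a library. The summed CPM of the C1q chains was 70.0 ± 1.86 for the controls, 116.7 ± 15.6 for the vehicle hearts and 82.6 ± 7.56 for the treated hearts. On the log2 scale, Lyve1 relative to this sum was -2.52 to -1.98 for the controls, -2.61 to -2.23 for the vehicle hearts and -3.31 to -2.81 for the treated hearts. In CPM, every treated heart thus had less Lyve1 per C1q than every heart of the other groups. Mrc1 relative to the sum was -2.87 to -2.53, -2.70 to -2.27 and -3.16 to -2.86, and the treated hearts were below all HFpEF-Veh hearts but met the lowest control heart. For Cd163 the treated hearts, at -5.23 to -4.42, overlapped both other groups. Fcgr3 relative to the sum was higher in all treated hearts (-3.36 to -3.15) than in all HFpEF-Veh hearts (-3.49 to -3.38). The same held for Cd68 (-3.98 to -3.88 against -4.13 to -4.01), while Adgre1 and Csf1r overlapped between these groups. These ratios were formed from CPM, which does not use gene length, after the levels were seen, and they were not tested. In TPM, T1 had more Lyve1 than V2 (1.29 against 1.17) and less of each C1q chain. T3 likewise had more Mrc1 than V4 (1.16 against 0.945 TPM) and less of each chain. The separations of Lyve1 and Mrc1 thus held in CPM but not in TPM. Those of Fcgr3 and Cd68 did not hold in TPM either, since T2 lay below V1 relative to the summed C1q chains. T2 was at 4.36 TPM for Fcgr3, 3.38 for Cd68, and 18.2, 9.72 and 7.85 for C1qa, C1qb and C1qc. The values in V1 were 4.00, 3.44, 15.7, 9.94 and 6.81 TPM.

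**Figure D3:**
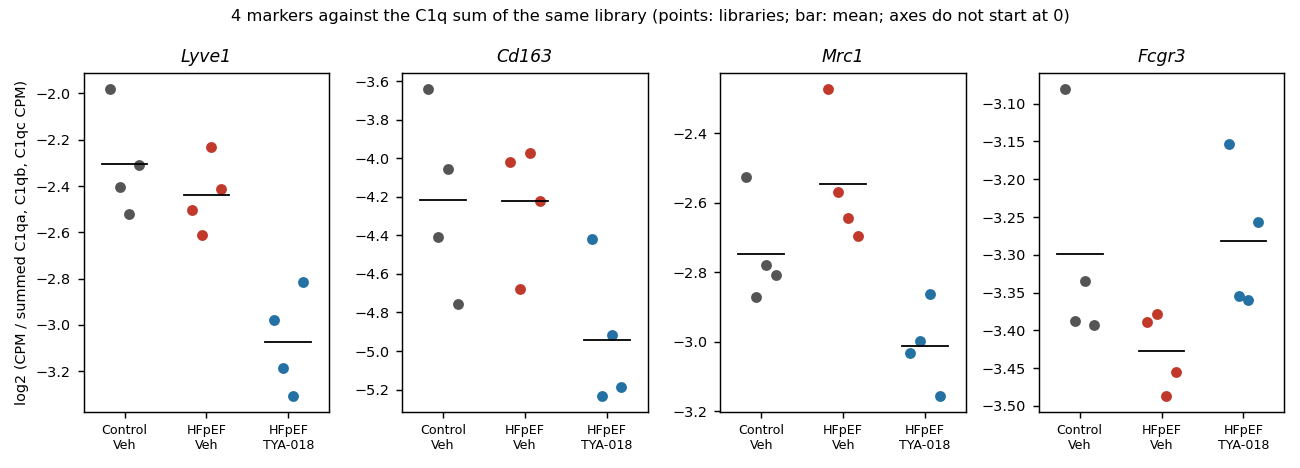
Log2 ratio of the CPM of Lyve1, Cd163, Mrc1 and Fcgr3 to the summed CPM of C1qa, C1qb and C1qc in the same library (vertical axes, not from 0), by group; points are libraries and bars are means. In these CPM ratios, which do not use gene length, the treated hearts lie below all other hearts for Lyve1. They lie above all HFpEF-Veh hearts for Fcgr3, and neither separation held in TPM.

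The scale on which a gene is measured mattered for several markers. In TPM, only C1qa, C1qb and C1qc of the 10 were higher in the vehicle hearts than in the controls without overlap, against 2.48% of tested genes. After TYA-018, 0 of the 10 were lower than in HFpEF-Veh without overlap in TPM, against 0.795% of tested genes. In HFpEF-TYA-018 against Control-Veh, the 3 C1q chains were higher without overlap in TPM, against 7.61% of tested genes. The TPM of tested genes as a whole shifted between groups, by a median log2(TPM + 1) of -0.069 in HFpEF-Veh against Control-Veh and of 0.17 in HFpEF-TYA-018 against HFpEF-Veh. Relative to that shift, the 10 markers were all higher in the first (median 0.31) and all lower in the second (median -0.29). On this scale limma called 1 marker, C1qc, in the first comparison (1.20% of tested genes). It called 0 in the second (0.474% were called lower). In HFpEF-TYA-018 against Control-Veh the shift was 0.080, and the C1q chains were at 0.32 to 0.38 relative to it. There limma called 0 markers (lowest adjusted p 0.184), against 9 of the 14333 tested genes. The unadjusted p of limma was under 0.05 for 3 markers in the first, the C1q chains, and for 0 in the second, with the share of all tested genes not counted. After TPM was rescaled over nuclear coding genes, limma called 5 higher in the first (C1qa, C1qb, C1qc, Fcgr3 and Mrc1; 4.85% of tested genes) and 6 lower in the second (C1qa, C1qb, C1qc, Cd163, Lyve1 and Mrc1; 2.95%), with medians of 0.56 and -0.59.

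The effective length that the authors' software assigned to a gene also differed between groups. For Adgre1 it was 4196 to 4930 bases for the controls, 5402 to 6604 for the vehicle hearts and 3724 to 4789 for the treated hearts. For Mrc1 it was 3099 to 4176, 4617 to 5576 and 3491 to 3821 bases. Both were longest in all HFpEF-Veh hearts, which lowers TPM there, whereas the length of C1qb stayed at 906 to 994 bases. The assigned lengths of Adgre1, Cd163 and Lyve1 exceeded their longest GENCODE M21 transcript (3238, 4443 and 2893 bases) in every library. With these lengths as an offset in edgeR, 7 markers were called higher in HFpEF-Veh (5.64% of tested genes) and 6 lower after TYA-018 (4.55%).

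**Figure D4:**
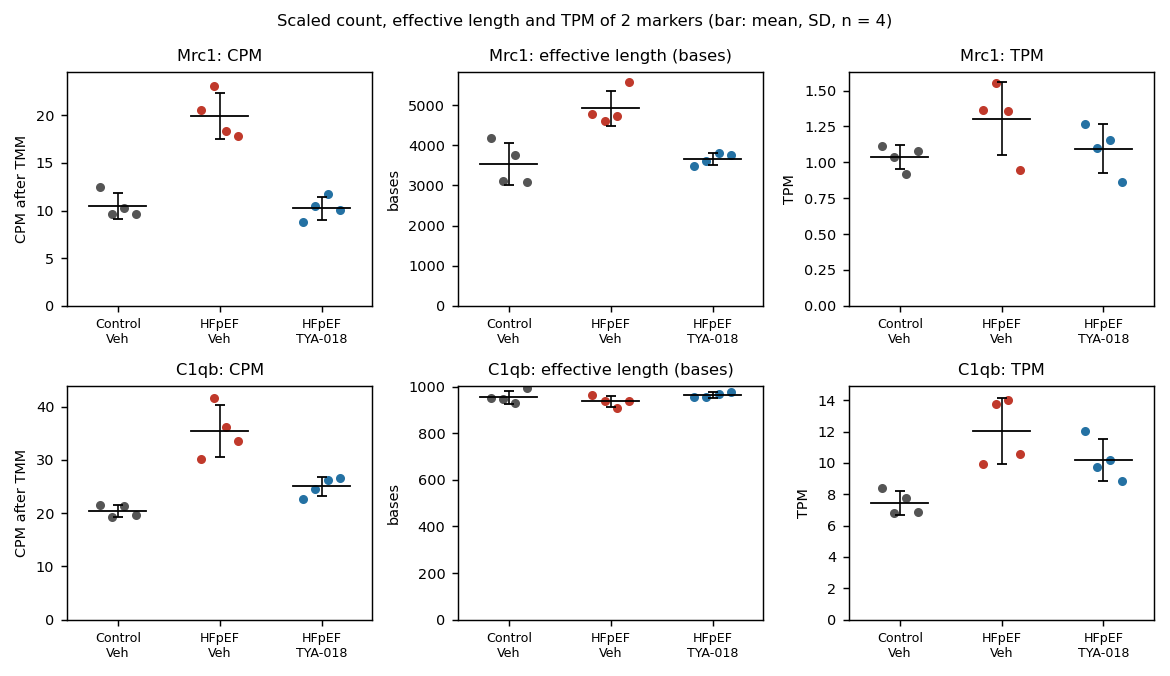
CPM after TMM, effective length in bases and TPM (columns, vertical axes from 0) of Mrc1 and C1qb (rows) in the 12 libraries by group; points are libraries and bars give the mean and SD (n = 4). For Mrc1 the HFpEF-Veh hearts have both the highest CPM and the longest effective length, and their TPM overlaps the other groups; for C1qb the length hardly differs.

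Some reads of the markers can come from other genes. Of the 50-base stretches in GENCODE M21 transcripts, 14.3% of those of Csf1r also occur in Hmgxb3, 9.58% of those of Fcgr3 in the related receptor Fcgr2b, and 0.109% of those of Cd163 in 3 other genes. The remaining 7 markers shared none. How far this affects the levels of Csf1r and Fcgr3 was not tested.

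A list of 30 other genes of macrophages moved in the same directions as the 10 markers in part. Of its 28 tested genes, 17 rose and 0 fell in HFpEF-Veh against Control-Veh (median 0.54 on the log2 scale). Vsig4, a receptor for complement fragments, rose by 1.33 ± 0.28 on the log2 scale, the lysosomal protease gene Ctss by 1.16 ± 0.20, and Itgam, the integrin CD11b, by 0.96 ± 0.18. Trem2, a lipid-sensing receptor, rose by 0.88 ± 0.26, though its groups overlapped. After TYA-018, 9 fell and 0 rose (median -0.42). Itgam fell by 1.09 ± 0.18 on the log2 scale, F13a1 (the transglutaminase factor XIII A, found in resident macrophages) by 0.75 ± 0.10, Cd53 by 0.73 ± 0.20 and Ctss by 0.72 ± 0.19. In HFpEF-TYA-018 against Control-Veh, 1 was called, the efferocytosis receptor gene Mertk, with a log2 fold change of -0.31 ± 0.08.

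Several other defining genes were not called, and these were picked out after their values were seen. Ptprc, the CD45 antigen of all leukocytes, was at 5.09 ± 1.83, 4.67 ± 0.511 and 4.24 ± 1.03 CPM in control, vehicle and treated hearts, with log2 fold changes of -0.13 ± 0.24 and -0.14 ± 0.24 in the first 2 comparisons (adjusted p of 0.747 by edgeR and 0.720). Aif1 had -0.28 ± 0.23 and 0.48 ± 0.23, opposite in sign to the markers, and was not called (0.409 and 0.171). Timd4 and Folr2, which mark resident macrophages, had -0.021 ± 0.44 and 0.14 ± 0.32 in the first comparison and were at 0.382 ± 0.119 and 2.87 ± 0.571 CPM in the controls. Tyrobp, the gene of an adaptor of myeloid receptors, was listed at 0 in all 12 libraries, so its level cannot be read from these files.

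Among 12 monocyte genes, 8 were tested. In HFpEF-Veh 4 of them rose, led by Ccr2, the receptor that brings monocytes into tissue (1.37 ± 0.669 to 3.00 ± 0.786 CPM, log2 fold change 1.13 ± 0.32). Vcan, Fn1 and Ace also rose, and these 3 fell after TYA-018, by 0.61 ± 0.15, 0.64 ± 0.15 and 0.40 ± 0.09 on the log2 scale. Ccr2 was not called in that comparison. Vcan and Fn1 are matrix genes that fibroblasts also express, and Ace is abundant in endothelium. In HFpEF-TYA-018 against Control-Veh, 0 of the 8 were called, and Ace, the most abundant, was at -0.012 ± 0.09.

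In the CSF1 receptor pathway, 11 of 12 genes were tested. The genes called, 2 in HFpEF-Veh and 1 in each direction after TYA-018, were near the shares of all tested genes, 21.2% and 19.3%. Il34, a ligand of the receptor, rose by 0.61 ± 0.13 and Spi1, which encodes PU.1, by 0.50 ± 0.15 on the log2 scale in HFpEF-Veh, with 0 lower. After TYA-018, Il34 fell by 0.44 ± 0.13 and the adaptor gene Grb2 rose by 0.20 ± 0.05. Neither of these passed against the controls. Csf1, the other ligand, was picked out after its values were seen. It was at 29.6 ± 1.81 CPM in Control-Veh and 30.8 ± 4.70 CPM in HFpEF-Veh (0.057 ± 0.10, adjusted p of 0.712 by edgeR), and at 25.5 ± 1.58 CPM after TYA-018 (-0.28 ± 0.10, 0.0645).

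Of 21 genes of complement outside C1q, 19 were tested. In HFpEF-Veh 10 rose and 0 fell (median 0.57), among them C3ar1, the receptor for C3a (0.74 ± 0.18), and Itgb2 (0.75 ± 0.18), beside Vsig4 and Itgam above. After TYA-018, 6 fell and 1 rose (median -0.34). C3ar1 fell by 0.96 ± 0.18, C5ar1, the receptor for C5a, by 0.60 ± 0.16 and Itgb2 by 0.62 ± 0.18 on the log2 scale. In HFpEF-TYA-018 against Control-Veh, 0 were called, and C3, the most abundant, had 0.23 ± 0.20.

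The 8 genes of Fc receptors and their signalling did not move as 1 group. In HFpEF-Veh, Fcgr4 (1.20 ± 0.36), the shared signalling chain Fcer1g (0.55 ± 0.10) and the phosphatase gene Inpp5d (0.32 ± 0.10) rose, while the kinase gene Syk fell (-0.45 ± 0.09). After TYA-018, Fcgr2b (-0.52 ± 0.15), Fcer1g (-0.36 ± 0.10) and Inpp5d (-0.33 ± 0.10) fell. Syk remained below the control level in the treated hearts (-0.40 ± 0.09, adjusted p of 0.0303 by edgeR).

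Scavenger and iron genes, 12 of 14 tested, included 1 that rose (Scarb1, 0.38 ± 0.10) and 2 that fell in HFpEF-Veh, the iron exporter gene Slc40a1 (-0.66 ± 0.13) and haptoglobin, Hp (4.46 ± 1.88 to 1.12 ± 0.600 CPM). That was near the 21.2% of all tested genes called. After TYA-018 only Lrp1 was called, lower (-0.42 ± 0.13), against 19.3% of all tested genes. Against the controls 0 were called, and Cd36, the most abundant, had -0.26 ± 0.18. Lysosomal genes did not come down as the markers did. Of 15 tested, 7 rose in HFpEF-Veh, among them Ctss, Lipa (0.66 ± 0.09) and Grn (0.35 ± 0.06). After TYA-018, Ctss and Lipa (-0.51 ± 0.09) fell while Ctsd (0.32 ± 0.06) and Psap (0.25 ± 0.06) rose. In HFpEF-TYA-018 against Control-Veh, 5 were called higher, including Psap (0.43 ± 0.06), Ctsd (0.39 ± 0.06), Grn (0.33 ± 0.06) and Lamp1 (0.28 ± 0.06). These proteins are made by most cell types.

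Of 17 genes of macrophage activation, 13 were tested. In HFpEF-Veh, Spp1 (1.54 ± 0.39) and Lgals3 (1.23 ± 0.26), which encode osteopontin and galectin 3, rose with 1 other gene, and Il1b (-1.84 ± 0.41) and Arg1 (-3.05 ± 0.80) fell. Levels of Il1b were low, 0.732 ± 0.287 CPM in Control-Veh and 0.204 ± 0.0663 CPM in HFpEF-Veh. After TYA-018, Nlrp3 (-1.09 ± 0.31), the costimulatory gene Cd86 (-0.81 ± 0.19) and Retnla (-0.78 ± 0.20) fell. These were 3 of the 13, against 19.3% of all tested genes called in either direction and 10.4% called lower. In HFpEF-Veh, 21.2% of all tested genes were called. Against the controls 0 were called, and Nos2, the most abundant, had 0.25 ± 0.17. Il6 and Il10 were at 0 in every library of Control-Veh and HFpEF-TYA-018, with at most 4 counts in any library.

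Genes of other cell types moved along with the markers. Of 7 fibroblast genes, 3 rose in HFpEF-Veh (median 0.58) and 4 fell after TYA-018 (median -0.50), and their summed level was 616 to 1046, 1013 to 1461 and 672 to 1024 CPM in control, vehicle and treated hearts. Col1a1, the main collagen gene, rose by 0.99 ± 0.13 and fell by 0.50 ± 0.13 on the log2 scale. Of 8 endothelial genes, 4 rose (median 0.28) and 5 fell (median -0.32), with sums of 1497 to 1740, 1820 to 2096 and 1411 to 1774 CPM. Pecam1 rose by 0.52 ± 0.10 and fell by 0.58 ± 0.10 on the log2 scale. Of 8 cardiomyocyte genes, 1 rose and 6 fell in HFpEF-Veh (median -0.52), and 3 rose and 0 fell after TYA-018 (median 0.23). The part of this wider change in the values of the markers was not tested.

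**Figure D5:**
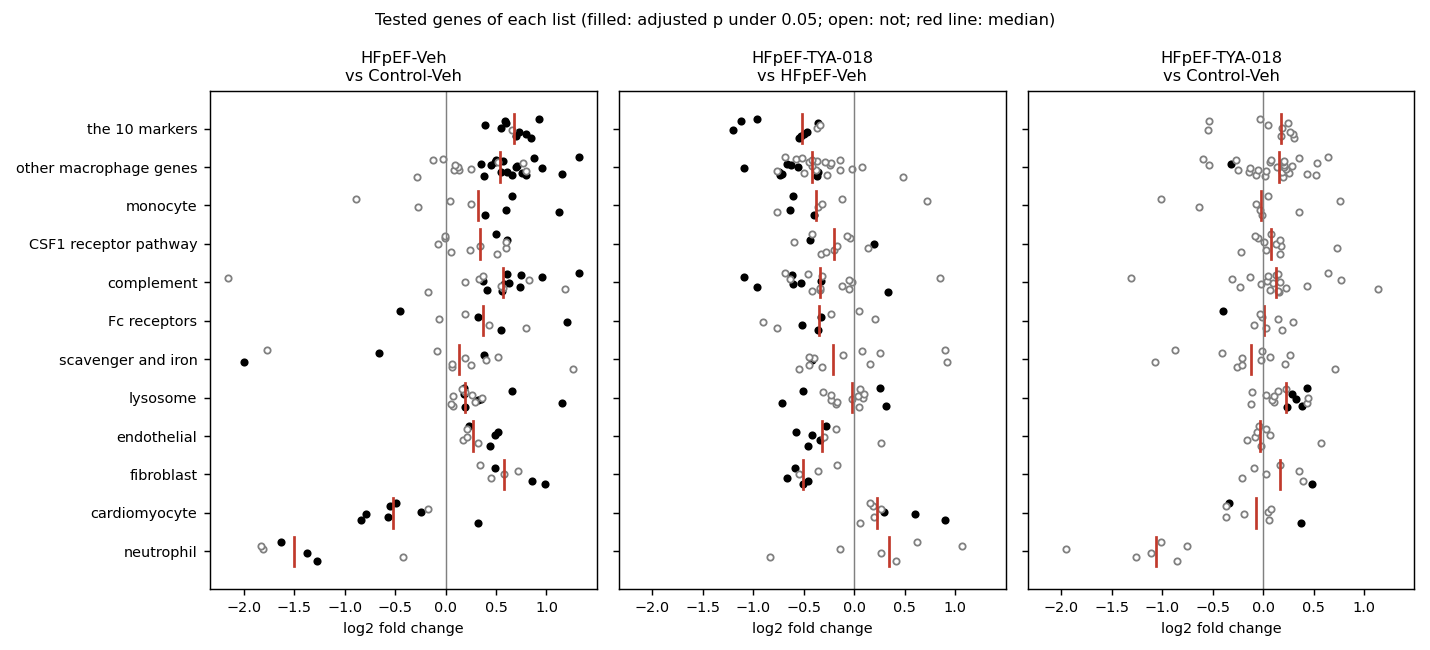
Log2 fold change (horizontal axis) of every tested gene of 12 lists (vertical axis) in the 3 comparisons; filled points have an edgeR adjusted p under 0.05, open points do not, and red lines are medians. The medians of the 10 markers, of the other macrophage genes and of the fibroblast and endothelial genes lie above 0 in the first comparison and below 0 in the second, and that of the cardiomyocyte genes does the reverse.

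Lymphatic endothelium also makes LYVE1. Its 6 other genes summed to 93.5 to 113 CPM for the controls, 77.3 to 90.5 for the vehicle hearts and 74.3 to 87.3 for the treated hearts. The part of lymphatic endothelium in the level of Lyve1 was not tested. In HFpEF-Veh, Prox1 (-0.37 ± 0.10) and Ccl21a (-0.59 ± 0.17) fell. After TYA-018, Prox1 rose (0.38 ± 0.10) and Flt4 fell (-0.46 ± 0.06), and Flt4 was also below the controls (-0.36 ± 0.06). No gene at 0 in all 4 libraries of a group was on this list.

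Genes of other white blood cells were at low levels. Neutrophil genes summed to 4.83 to 12.4, 2.03 to 5.53 and 2.45 to 6.92 CPM, and 3 of 6 tested fell in HFpEF-Veh (Csf3r, S100a9 and Mmp9). T and natural killer cell genes summed to at most 4.90 CPM and B cell genes to at most 7.89 CPM per library. Of these, Cd79a fell in HFpEF-Veh (-0.81 ± 0.23), and 0 were called after TYA-018. Of 5 tested dendritic cell genes, Zbtb46 rose in HFpEF-Veh (0.38 ± 0.10), and Zbtb46 (-0.48 ± 0.10) and Clec9a (-1.77 ± 0.52) fell after TYA-018. Of all tested genes, 21.2% and 19.3% were called in these comparisons. Mast cell genes summed to 3.53 to 6.97 CPM, with 0 called in any comparison.

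All 6 red cell genes rose in HFpEF-Veh (median 2.15) and fell after TYA-018 (median -1.62). Slc4a1, which encodes the red cell anion exchanger, rose by 3.26 ± 0.44 and fell by 3.11 ± 0.43 on the log2 scale. All 8 cell cycle genes rose in HFpEF-Veh (median 2.42) and 5 fell after TYA-018 (median -1.16). Ccnb1 was at 0.174 ± 0.0763 CPM in Control-Veh and 2.05 ± 1.15 CPM in HFpEF-Veh. Which cells these transcripts came from cannot be told apart in whole ventricle. Of 3 tested fat cell genes, 0 were called in any comparison, and the list summed to at most 2.08 CPM.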

How the data were processed

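LV poly(A) RNA was sequenced from 12 mice. The authors trimmed reads with fastp, quantified them with salmon 1.6.0 against mouse GENCODE transcripts and summarised them per gene with tximport. The deposited tables hold, for each gene, estimated counts (not normalised), TPM (scaled by length and library) and, as values of another kind, the effective length in bases. Labels and published methods differ on read length and layout. The labels' build field does not name the mouse build, and coordinates are GRCm38, the build in the methods.

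Estimated counts were rounded and tested with edgeR 4.0.16 (R 4.3.3): filterByExpr, TMM, 1 quasi-likelihood model over the 3 groups (9 residual degrees of freedom), two-sided tests, Benjamini-Hochberg at 0.05. Totals of 61.2 to 83.9 M bear on precision. Tests were checked on simulated counts. Alternatives were DESeq2 1.42.0, limma 3.58.1 on log2(TPM + 1) or log2(TPM + 0.1), length offsets, other scaling and filters, and leaving out each library. The study used log2(TPM + 1) rescaled over nuclear coding genes, which was also an alternative here. No source states whether mice of a group shared a cage, so p-values measure the spread between these samples. The markers and lists were chosen with earlier results of these data known. Text names all 10 markers, up to 4 called genes with the largest change from each other list (or, with none called, the most abundant gene), and exceptions marked as such, except 1 gene not reported here. All value columns were used. Sequences are from RefSeq.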

Additional observations from a re-analysis of the deposited data

Results flagged for a closer look

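In 30 sets of 4 libraries (10 markers in 3 groups), 1 held a library far from the other 3. Lyve1 in HFpEF-TYA-018 was at 12.7 CPM in T4 and at 8.62 to 9.18 CPM in T1 to T3, a gap of 0.865 of the range of the group. Chance alone gives about 1 such set in 20. T4 was also the highest treated heart for 4 other markers.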

How the results depend on the processing

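No paired analysis was possible because the groups had no replicate numbers in common. For HFpEF-Veh against Control-Veh, where 9 markers were called, limma on log2(TPM + 1) called 1, on log2(TPM + 0.1) 2, and on TPM rescaled over nuclear coding genes 5, and leaving out 1 library gave 7 to 10. For HFpEF-TYA-018 against HFpEF-Veh, with 8 called, both unscaled TPM fits called 0 and rescaled TPM 6, and leaving out 1 library gave 6 to 7. For HFpEF-TYA-018 against Control-Veh, with 0 called, DESeq2 called 2 and leaving out 1 library gave 0 to 1. After TYA-018 the sign turned on log2(TPM + 1) and log2(TPM + 0.1) for Adgre1 (0.043 and 0.16) and Fcgr3 (0.061 and 0.074), while all genes had medians of 0.17 and 0.34. Mrc1 against the controls turned to 0.039 and 0.065. Leaving out 1 library moved Csf1r against the controls from -0.020 to 0.20 and Mrc1 from -0.11 to 0.060. The cause of these changes was not tested. The other scalings, the fit with no filter, the length offset and the fit of 2 groups only kept each count of called markers within 1.5 times. Leaving mitochondrial genes out before scaling gave 9, 8 and 0 called markers in the 3 comparisons.

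Over all tested genes, edgeR called 3033, 2767 and 840 in the 3 comparisons. With effective lengths as an offset these became 1445, 1217 and 203, on rescaled TPM 1093, 777 and 100, on log2(TPM + 1) 172 and 9 in the first and last, and on log2(TPM + 0.1) 301, 2618 and 11. DESeq2 called 3755, 3408 and 1514. On log2(TPM + 1) after TYA-018, 2228 were higher and 68 lower. Low counts limit Adgre1, which had 98 to 204 estimated counts per library.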

Other observations

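Outside all lists, the 5 tested genes whose log2 CPM followed the mean log2 CPM of the 10 markers most closely over the 12 libraries were Mxd4 (Pearson's r 0.981), Ankrd13a (0.978), Rab5c (0.975), Loxl2 (0.975) and F2r (0.969). The groups differ in level, so libraries of the same group share most of this likeness, and nothing on function follows from it. Loxl2, a collagen cross-linking enzyme gene, was at 8.15, 18.7 and 9.79 CPM on average in control, vehicle and treated hearts. Rab5c, a gene of early endosomes, was at 41.7, 55.7 and 43.0 CPM. F2r, the thrombin receptor gene, was at 21.3, 32.3 and 20.5 CPM.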
